A study of Mus musculus with 24 samples.

Results

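The Bcl2 family genes described here are 5 counted as pro-survival members (Bcl2l10, Bcl2, Bcl2l1, Bcl2l2 and Mcl1), the pore-forming members Bax and Bak1, and the BH3-only members Bad, Bid and Bcl2l11. They were chosen by name, and every probe set to which the array annotation gives 1 of these symbols was taken. The result was 32 of the 45101 probe sets of the array, which measure 9 of the 10 genes, of 18193 genes on the array with a probe set of their own. Bax had no probe set in the annotation used here and was not analysed here.

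BALB/c mice breathed 6% oxygen for 6 h, and their retinas were isolated after 0, 2, 4 or 16 h of reoxygenation in room air. Retinas of normoxic control mice were isolated at the same 4 times. The study asks which genes respond to hypoxic preconditioning, a low-oxygen period after which photoreceptors withstand bright light for some hours. Each of the 24 arrays held RNA of 1 pool of 3 retinas from 3 mice, with 3 pools in each of the 8 groups, so that every test is over pools. Every group, the controls included, was of an albino strain that carries the leucine variant of Rpe65, and no transgene or deletion was used. The RNA is of whole retina, so that fewer cells of a type and less RNA per cell cannot be told apart. All 6 measured rod markers were above the signal threshold in each group.

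Some arrays stood apart. Over all arrays the lowest median correlations with the other 23 were those of the 3 hypoxic arrays of 0 h, 0.987, 0.989 and 0.987. Among the normoxic arrays the lowest median correlations with the other 23 arrays belonged to 16 h replicate 3 (0.991) and 0 h replicate 2 (0.991), and the latter had a summed lens marker signal of 5144 against 58430 and 77950 in the other normoxic pools at 0 h. Markers of the retinal pigment epithelium, the cell layer behind the photoreceptors, moved with hypoxia at 0 h. All 6 of those tested among the 9 measured were higher, and Lrat, Best1 and Tyr were below the threshold in both groups. Of those tested, Rpe65, Rgr, Rdh5, Dct and Pmel passed only through their hypoxic mean, so this count is a description. In the normoxic pools at 0 h only Ttr had a mean at the threshold. The summed signal of the 9 was 7648 to 8277 in the hypoxic pools and 735.1 to 1115 in the normoxic pools. The part of pigment epithelium cells in the changes at 0 h was not tested. At 0 h no rod marker of 6, no microglial marker of 3 and no lens marker of 11 was called. Of the Mueller glia markers 1 of 5 was higher, of the ganglion cell markers 1 of 5 was higher, and 1 of 2 endothelial markers was lower. Over all genes tested at 0 h, 15.2% were higher and 18.7% lower. The marker lists were summed on the linear scale of the signal.

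Proteins of the Bcl2 family decide whether the outer mitochondrial membrane is opened in apoptosis. Bax and Bak1 form the pores through which cytochrome c leaves, the pro-survival members hold them in check, and BH3-only proteins bind the pro-survival members or activate the pore formers directly. Apoptosis is the main route of photoreceptor loss in light damage and in many inherited retinal degenerations. The paper states, however, that neither cytochrome c release nor caspase activation through death receptors appears to take place in retinal degeneration. Hypoxia changes the transcription of several family members in other tissues.

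Bcl2l11, which encodes Bim, and Bad were the BH3-only genes called at 0 h, in opposite directions, and their promoter windows are printed here for that reason. Each window holds the 250 bases before a RefSeq transcription start on build GRCm38.p6, in lower case. Capitals mark the core letters bound by hypoxia-inducible factors, ACGTG or GCGTG on either strand (GCGTG on the other strand reads CACGC), and GTAAACA, the core letters of FOXO factors, on either strand.
Bcl2l11 window 1, chr2:128125788-128126037, + strand: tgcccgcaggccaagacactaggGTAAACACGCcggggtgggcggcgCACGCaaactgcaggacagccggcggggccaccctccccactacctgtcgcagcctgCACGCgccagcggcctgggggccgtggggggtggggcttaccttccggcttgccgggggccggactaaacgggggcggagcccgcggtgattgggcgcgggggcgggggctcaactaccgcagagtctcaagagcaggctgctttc
Bcl2l11 window 2, chr2:128127325-128127574, + strand: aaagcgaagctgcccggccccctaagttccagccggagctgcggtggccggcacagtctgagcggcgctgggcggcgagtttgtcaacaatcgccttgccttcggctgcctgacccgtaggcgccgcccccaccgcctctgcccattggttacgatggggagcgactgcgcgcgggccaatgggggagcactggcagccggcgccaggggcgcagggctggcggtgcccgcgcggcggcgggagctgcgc
Bad window 1, chr19:6941611-6941860, + strand: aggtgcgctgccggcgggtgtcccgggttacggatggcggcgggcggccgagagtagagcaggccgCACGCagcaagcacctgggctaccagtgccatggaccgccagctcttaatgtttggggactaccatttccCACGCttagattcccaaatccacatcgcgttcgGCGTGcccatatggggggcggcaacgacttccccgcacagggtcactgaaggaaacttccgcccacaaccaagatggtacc
Bad window 2, chr19:6942312-6942561, + strand: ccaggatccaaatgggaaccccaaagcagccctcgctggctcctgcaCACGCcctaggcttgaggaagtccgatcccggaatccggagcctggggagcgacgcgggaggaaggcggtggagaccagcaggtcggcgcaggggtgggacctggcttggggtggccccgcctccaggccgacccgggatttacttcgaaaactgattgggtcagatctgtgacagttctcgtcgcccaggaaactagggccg
The first Bcl2l11 window held 3 hypoxia-inducible factor matches and 1 FOXO match, the last sharing the letters CA with the match that follows it. No match stood in the second Bcl2l11 window. The Bad windows held 3 matches and 1 match, all of the hypoxia-inducible factor kind. Over the family, 4 of 12 windows of 8 genes held an ACGTG or GCGTG match and 1 held GTAAACA, while 38.6% of all 32851 windows of this length held the former and 3.17% the latter. Bcl2l10 was not among the windows used. A match gives letters only and is not a measured binding site.

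At 0 h the family changed in both directions. Of the 19 probe sets tested at this time 13 were called at an adjusted p under 0.05, 10 of them higher and 3 lower after hypoxia, against 32.4% of all 18799 probe sets tested (15.2% higher and 17.2% lower). They belong to 6 genes. The hypoxic pools were all above the normoxic pools in 9 tested family probe sets (21.5% of all tested) and all below them in 2 (23.9%). Bcl2l10, Bcl2l1, Mcl1 and Bcl2l11 were higher, Bcl2 and Bad were lower, and the probe sets of Bcl2l2 were not called. The median log2 change of the tested family probe sets was 0.20 and that of all probe sets tested was -0.01. A probe set was tested when the mean of either treatment reached a log2 signal of 6.69. Bcl2l10 and the Bcl2l11 probe sets 1435449_at and 1456006_at passed only through their hypoxic mean, so these counts are a description and not support for a direction of the family. Of the 32 probe sets, 12 were below the threshold at all 4 times, among them both of Bak1 and all 3 of Bid.

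**Figure D1:**
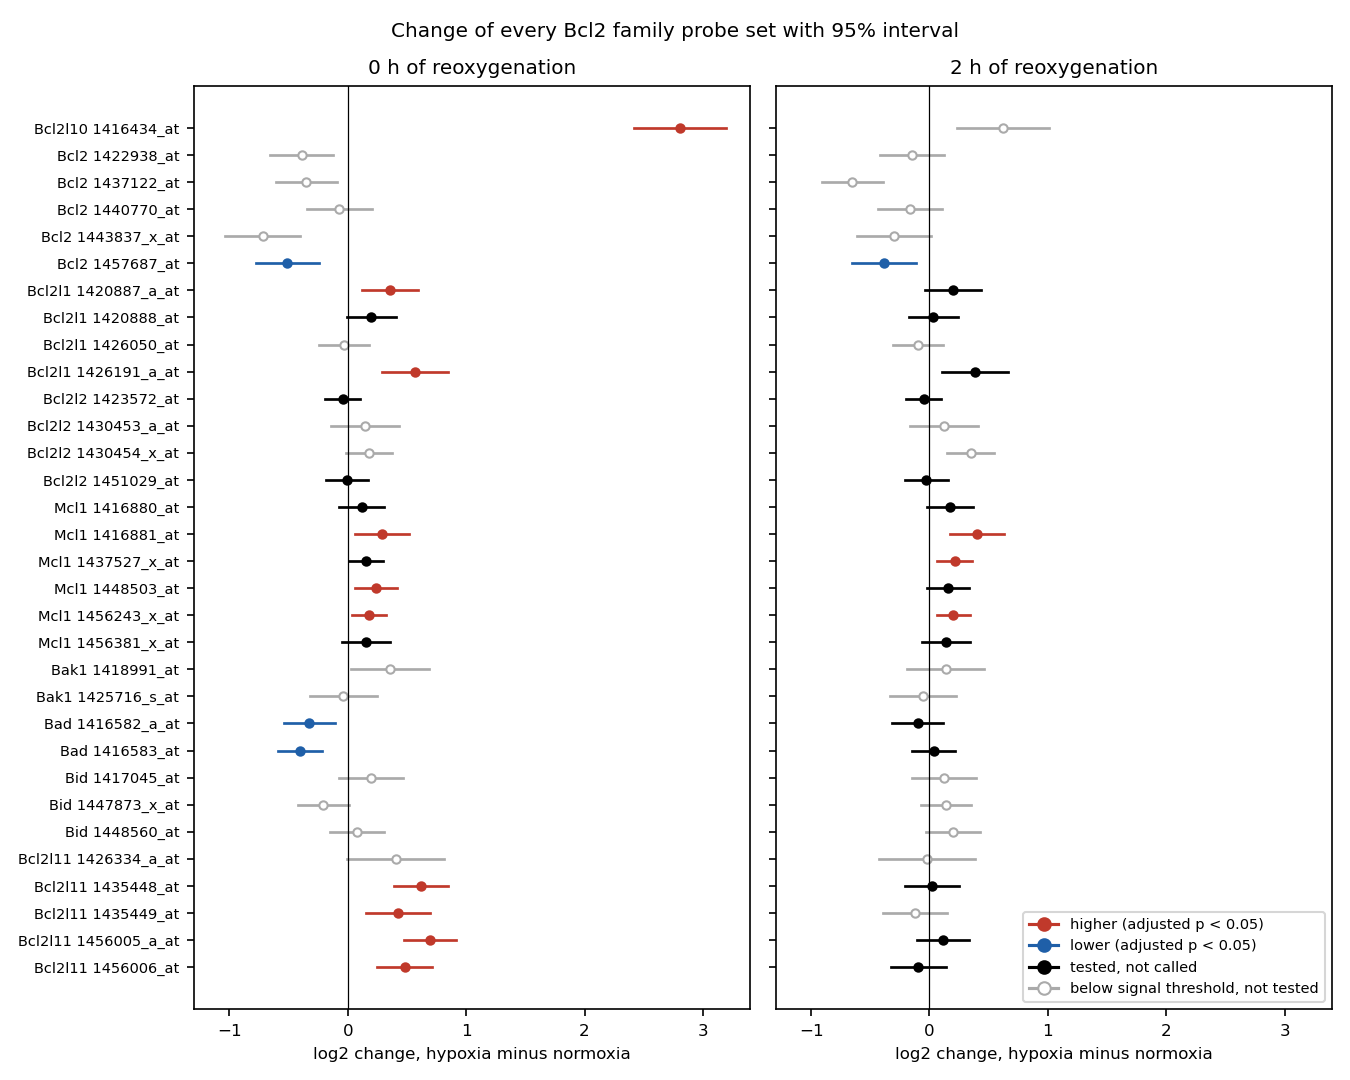
Log2 change (hypoxia minus normoxia, horizontal axis) of each of the 32 Bcl2 family probe sets at 0 h and at 2 h of reoxygenation, with 95% intervals from the model over all arrays. Red points are higher and blue points lower at an adjusted p under 0.05, black points were tested and not called, and open points were below the signal threshold. Bcl2l10 stands far to the right at 0 h, with a measured difference of 2.80 from normoxic signals below the threshold.

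Bcl2l10, a relative of Bcl2 that binds several other family proteins, was above the signal threshold in the hypoxic pools at 0 h and in none of the other 7 groups. Its log2 signal (probe set 1416434_at) was 8.08, 7.83 and 7.90 in the hypoxic pools at 0 h and 5.17, 5.07 and 5.17 in the normoxic pools. The groups were far apart, and the normoxic signals were below the threshold. Measured from the threshold of 6.69, since a signal under it does not fix the lower level, the hypoxic mean of 7.94 was at least 2.38-fold higher. The measured means differed by 2.80 on the log2 scale (adjusted p = 2.3e-09, limma), and by 2.73 to 2.86 without any 1 of the 6 pools. The probe set entered the test only through the group in which it is high.

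The signal of Bcl2l10 was low again at the later times. At 2 h it was 6.15, 5.23 and 5.79 after hypoxia and 4.69, 5.13 and 5.49 in normoxia. The groups overlapped and both means were below the threshold, so the difference of 0.62 (95% interval 0.23 to 1.01) was not tested, and its adjusted p without the filter was 0.0536. It was between 0.41 and 0.87 without 1 of the 6 pools, the lowest without hypoxic replicate 1. The summed pigment epithelium signals of these hypoxic pools, in the same order, were 4048, 5648 and 2369, those of the normoxic pools were 1110, 3358 and 1877, and their part in the difference was not tested. At 4 h the mean of the 3 hypoxic pools was 5.35 ± 0.08 (SD) and that of the 3 normoxic pools 5.29 ± 0.18 (SD), and at 16 h these means were 4.88 ± 0.20 (SD) and 4.81 ± 0.22 (SD). In the order of the 8 group means, the hypoxic group at 0 h came first and did not overlap with the next, the hypoxic group at 2 h, while all other neighbours in the order overlapped. The differences between the effect at 0 h and those at later times each rest on 3 group means below the threshold for Bcl2l10. Their sizes, listed among the flagged results, are measured differences only.

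**Figure D2:**
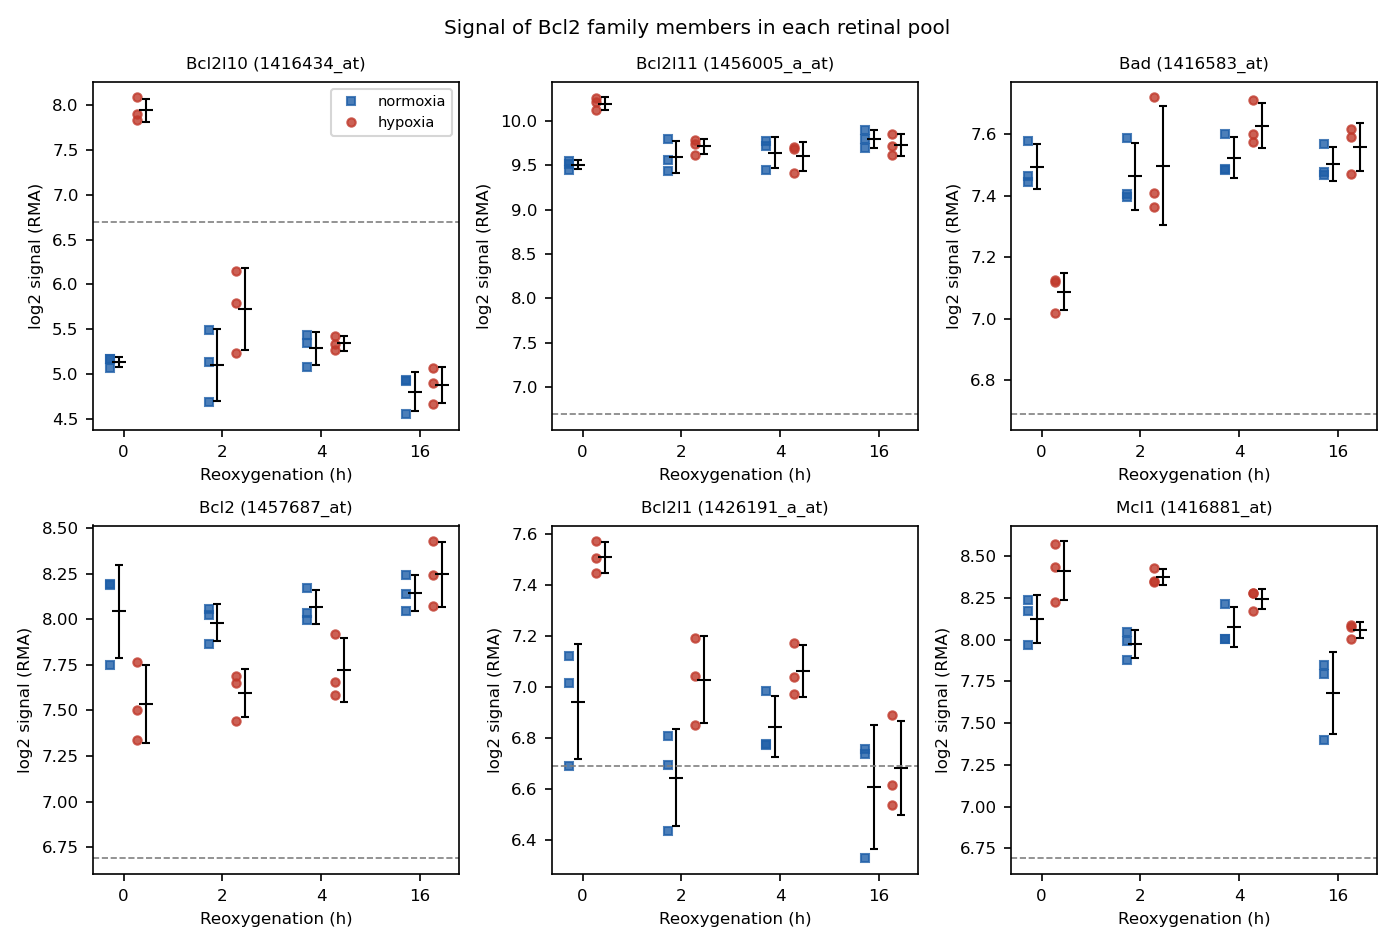
Log2 signal (vertical axis, RMA) of 6 family probe sets in each of the 24 retinal pools by hours of reoxygenation (horizontal axis, evenly spaced), blue squares for normoxia and red circles for hypoxia, with mean and SD beside them. Vertical scales differ between panels and do not start at 0, and the dashed line is the signal threshold of 6.69. The hypoxic pools at 0 h lie apart from the normoxic pools for Bcl2l10, Bcl2l11, Bad and Bcl2l1, while those of Bcl2 and Mcl1 overlap.

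The 5 genes whose signal over the 24 arrays was most like that of Bcl2l10, among 10341 genes with a probe set tested at some time, were Zbtb2 (r = 0.97), Usp7 (r = 0.96), Nfx1 (r = 0.96), Tmod1 (r = 0.96) and Cdt1 (r = 0.96). All 5 had log2 changes between 0.99 and 1.42 at 0 h. These correlations are a description over arrays that share the 0 h contrast.

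Bcl2l11 rose at 0 h in the 2 probe sets whose signal was above the threshold in both treatments, and the other 2 tested, which passed through their hypoxic mean alone, were also called higher. Bim, its product, is a BH3-only protein that binds all main pro-survival members and can activate Bax and Bak1. With probe set 1456005_a_at the hypoxic pools at 0 h read 10.26, 10.12 and 10.22 and the normoxic pools 9.45, 9.55 and 9.51, all on the log2 scale. Every hypoxic pool was above every normoxic pool, and the log2 change was 0.69 (SE 0.11, adjusted p = 3.54e-05), which is 1.62-fold.

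Probe set 1435448_at of Bcl2l11 read 8.96, 8.74 and 8.78 after hypoxia against 8.28, 8.23 and 8.10, a log2 change of 0.62 (SE 0.11, adjusted p = 0.000178) or 1.53-fold. The signals of 1456006_at were 7.35, 6.84 and 6.96 against 6.56, 6.64 and 6.50, a log2 change of 0.48 (SE 0.11, adjusted p = 0.0021), or at least 1.28-fold when measured from the threshold, since all 3 normoxic pools were below it. Those of 1435449_at were 6.99, 7.12 and 6.87 against 6.37, 6.72 and 6.62, a log2 change of 0.42 (SE 0.13, adjusted p = 0.0162). Its normoxic mean of 6.57 was below the threshold too, so the lower level and the size of this change are not fixed. None of the 3 had overlapping groups, although for 1456006_at 1 hypoxic pool was well above the other two. The call of 1435449_at was lost without hypoxic replicate 2 (adjusted p = 0.0725) or normoxic replicate 1 (adjusted p = 0.0897), and the other 3 calls held without any 1 of the 6 pools. The fifth probe set, 1426334_a_at, was below the threshold throughout, with a difference of 0.40 at 0 h (95% interval -0.01 to 0.81).

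No Bcl2l11 probe set was called at 2 h or later. At 2 h the pools of 1456005_a_at read 9.79, 9.62 and 9.74 after hypoxia and 9.44, 9.80 and 9.56 in normoxia, and the groups overlapped. The log2 change there was 0.12 (95% interval -0.10 to 0.34, adjusted p = 0.496). For this probe set the effect at 0 h was larger by 0.58 than at 2 h, by 0.74 than at 4 h and by 0.76 than at 16 h, with adjusted p of 0.0186, 0.00167 and 0.00108. These differences share the 6 arrays of 0 h, as do all others of this kind. The difference from 2 h passed 0.05 no longer without hypoxic replicate 1 of 0 h (adjusted p = 0.054), hypoxic replicate 2 of 2 h (adjusted p = 0.052) or normoxic replicate 2 of 2 h (adjusted p = 0.0608). Over the 24 arrays, the 5 genes most like 1456005_a_at were Dusp16 (r = 0.87), Rbm20 (r = 0.86), Bmt2 (r = 0.85), Medag (r = 0.85) and Matr3 (r = 0.85), again as a description.

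Bad fell at 0 h, with both of its probe sets. Its product is a BH3-only protein that binds Bcl2 and the product of Bcl2l1 and is held inactive by phosphorylation. The hypoxic pools of 1416583_at read 7.02, 7.12 and 7.12 and the normoxic pools 7.58, 7.44 and 7.46, without overlap. The log2 change was -0.41 (SE 0.09, adjusted p = 0.00131), that is, 1.33-fold lower, and the call held without any 1 of the 6 pools. With 1416582_a_at the pools were at 7.43, 7.36 and 7.34 against 7.74, 7.52 and 7.84, again without overlap, and the log2 change was -0.32 (SE 0.10, adjusted p = 0.0187). That call was lost without hypoxic replicate 2 (adjusted p = 0.0505), hypoxic replicate 3 (adjusted p = 0.0615), normoxic replicate 1 (adjusted p = 0.0556) or normoxic replicate 3 (adjusted p = 0.1).

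By 2 h the signal of Bad 1416583_at was 7.41, 7.72 and 7.36 after hypoxia and 7.41, 7.59 and 7.39 in normoxia, overlapping, with a log2 change of 0.03 (95% interval -0.15 to 0.22). The effect at 0 h minus that at a later time was -0.44 for 2 h, -0.51 for 4 h and -0.46 for 16 h, with adjusted p of 0.0313, 0.00706 and 0.0122. For 1416582_a_at no such difference was called (adjusted p = 0.061 at the lowest). The difference of 1416583_at from 2 h was lost without any 1 of 5 pools, with adjusted p between 0.0681 without normoxic replicate 3 of 2 h and 0.0937 without hypoxic replicate 2 of 2 h, and with 0.093 without hypoxic replicate 1 of 0 h, 0.0712 without normoxic replicate 1 of 0 h and 0.0735 without normoxic replicate 1 of 2 h.

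**Figure D3:**
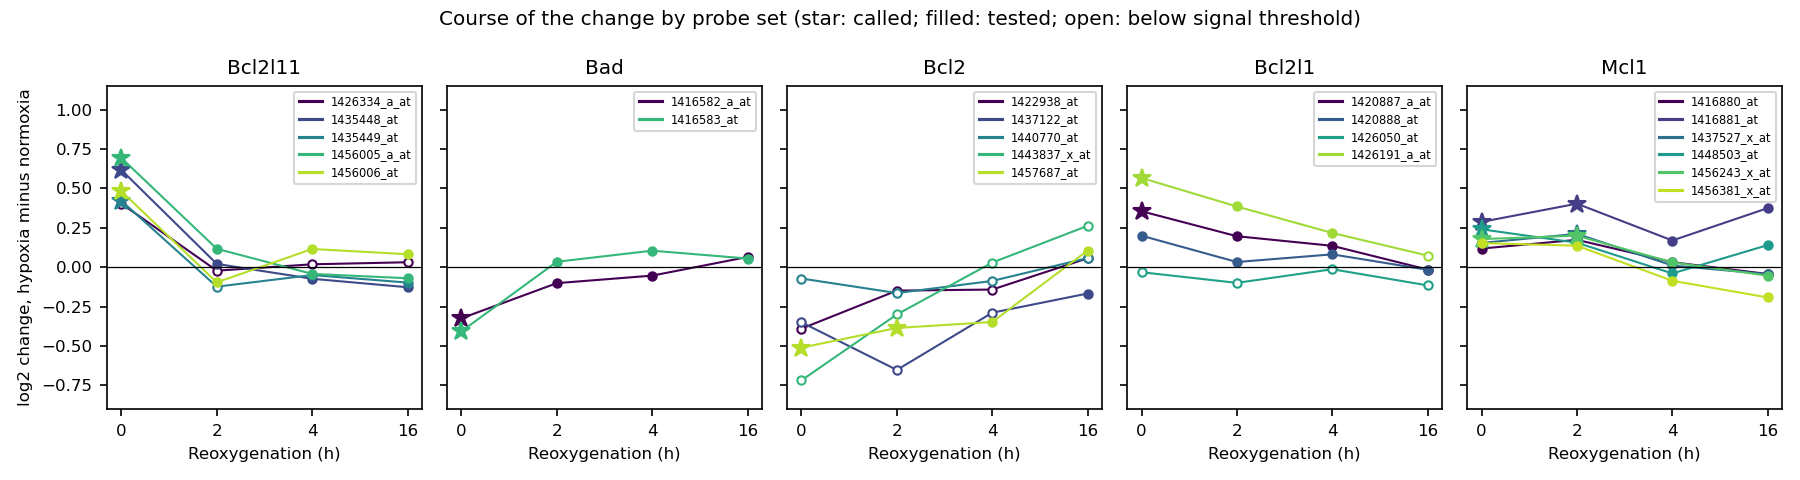
Log2 change (hypoxia minus normoxia, vertical axis) of each probe set of Bcl2l11, Bad, Bcl2, Bcl2l1 and Mcl1 against hours of reoxygenation (horizontal axis, times evenly spaced and not to scale). Stars were called at an adjusted p under 0.05, filled points were tested and open points were below the signal threshold. The stars of Bcl2l11, Bad and Bcl2l1 all stand at 0 h, and Bcl2 and Mcl1 also have stars at 2 h.

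Bcl2, the founding pro-survival member, was lower after hypoxia at 0 h and at 2 h in its 1 probe set above the threshold at those times, 1457687_at. At 0 h the hypoxic pools read 7.76, 7.50 and 7.34 and the normoxic pools 8.19, 8.19 and 7.75. The highest hypoxic pool and the lowest normoxic pool overlapped. The log2 change was -0.51 (SE 0.13, adjusted p = 0.00424), and leaving out any 1 of the 6 pools gave adjusted p of at most 0.0349. A plain t-test on the arrays of this time did not call it (adjusted p = 0.153).

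At 2 h the pools of Bcl2 1457687_at were at 7.69, 7.65 and 7.44 after hypoxia and 7.87, 8.02 and 8.05 in normoxia. There was no overlap, and the log2 change was -0.39 (SE 0.13, adjusted p = 0.0446). This call was lost without any of 5 pools, which were hypoxic replicates 1 (adjusted p = 0.0684), 2 (0.0641) and 3 (0.175) and normoxic replicates 2 (0.107) and 3 (0.136). At 4 h the readings were 7.66, 7.92 and 7.59 after hypoxia against 7.998, 8.17 and 8.03, also without overlap, and the difference of -0.35 was not called (adjusted p = 0.191). At 16 h the hypoxic pools read 8.43, 8.24 and 8.07 and the normoxic pools 8.14, 8.24 and 8.04, and the groups overlapped. The effect at 0 h minus that at 16 h was -0.62 (adjusted p = 0.0203), and this call was lost without hypoxic replicate 3 (adjusted p = 0.0636), normoxic replicate 1 (0.0504) or normoxic replicate 2 (0.0552) of 0 h or hypoxic replicate 1 of 16 h (0.0607).

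The other 4 probe sets of Bcl2 were below the threshold at 0 h and 2 h and were not tested there. Their differences at 0 h were -0.72 for 1443837_x_at, -0.39 for 1422938_at, -0.35 for 1437122_at and -0.07 for 1440770_at. At 2 h 1437122_at read 6.16, 5.95 and 5.84 after hypoxia and 6.64, 6.70 and 6.57 in normoxia. The groups were apart, with a difference of -0.65 (95% interval -0.91 to -0.39), although both means were below the threshold.

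Bcl2l1, whose main product is the pro-survival protein Bcl-xL, rose at 0 h in 2 of 3 tested probe sets. The signals of 1426191_a_at were 7.51, 7.45 and 7.57 after hypoxia and 7.12, 7.02 and 6.69 in normoxia, without overlap. Its log2 change of 0.57 (SE 0.13, adjusted p = 0.00249) corresponds to 1.48-fold and was called without any 1 of the 6 pools. The plain t-test did not call it (adjusted p = 0.0682). Probe set 1420887_a_at read 8.43, 8.26 and 8.41 against 8.11, 8.13 and 7.80, a log2 change of 0.36 (SE 0.11, adjusted p = 0.021). This second call was lost without hypoxic replicate 1 (adjusted p = 0.0732), hypoxic replicate 3 (0.0662) or normoxic replicate 3 (0.135). The third, 1420888_at, read 9.46, 9.27 and 9.37 against 9.30, 9.21 and 8.99, overlapped, and was not called (log2 change 0.20, adjusted p = 0.132). The fourth, 1426050_at, was below the threshold.

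At 2 h the signals of Bcl2l1 1426191_a_at were 7.04, 7.19 and 6.85 after hypoxia and 6.69, 6.81 and 6.43 in normoxia. These groups did not overlap, and the log2 change of 0.39 did not pass the test (adjusted p = 0.0523). The normoxic mean of 6.64 was below the threshold, so the probe set was tested at 2 h only through its hypoxic mean. The difference between its changes at 0 h and at 2 h was 0.18 (95% interval -0.21 to 0.57, adjusted p = 0.653) and was not called.

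Mcl1, a pro-survival member with a short-lived protein, rose at 0 h in 3 of 6 tested probe sets. Probe set 1416881_at read 8.57, 8.22 and 8.44 after hypoxia and 7.96, 8.24 and 8.17 in normoxia, with the lowest hypoxic pool below the highest normoxic one, and its log2 change was 0.29 (SE 0.11, adjusted p = 0.0473). The signals of 1448503_at were 9.62, 9.56 and 9.73 against 9.39, 9.36 and 9.43, a log2 change of 0.24 (SE 0.09, adjusted p = 0.0355). Those of 1456243_x_at were 10.18, 10.17 and 10.22 against 9.997, 9.94 and 10.09, a log2 change of 0.18 (SE 0.07, adjusted p = 0.0469). The latter pair of probe sets had no overlap. All 3 calls lay close to the threshold and were lost when single pools were left out. For 1416881_at these were hypoxic replicates 1 (adjusted p = 0.215) and 3 (0.114) and normoxic replicates 1 (0.194) and 3 (0.0695). For 1448503_at they were hypoxic replicates 1 (0.0662) and 3 (0.147) and each normoxic replicate (0.0705, 0.0961 and 0.0538), and for 1456243_x_at each hypoxic replicate (0.0802, 0.074 and 0.132) and normoxic replicates 1 (0.101) and 2 (0.168).

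Counts at 2 h were smaller, with 4 of 17 tested probe sets called, 3 higher and 1 lower, against 16.6% of all probe sets tested (9.19% higher and 7.38% lower). The 3 higher ones were of Mcl1 and the lower one was of Bcl2, as described. The pools of the treatments did not overlap in 6 higher and 1 lower family probe sets, against 19.8% and 14.9% of all tested. Apart from Bcl2l1 1426191_a_at, which was tested only through its hypoxic mean, the higher ones were all probe sets of Mcl1. The median log2 change of the tested family probe sets was 0.12 and that of all probe sets tested was 0.01.

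Probe set 1416881_at of Mcl1 read 8.35, 8.34 and 8.43 after hypoxia at 2 h and 7.99, 8.05 and 7.88 in normoxia, a log2 change of 0.40 (SE 0.11, adjusted p = 0.0147). For 1437527_x_at the signals were 10.75, 10.81 and 10.84 against 10.58, 10.60 and 10.59, a log2 change of 0.21 (SE 0.07, adjusted p = 0.0438). For 1456243_x_at they were 10.31, 10.37 and 10.28 against 10.10, 10.13 and 10.13, a log2 change of 0.20 (SE 0.07, adjusted p = 0.0459). In all 3 the hypoxic pools were above every normoxic pool. The first call was lost without hypoxic replicate 3 (adjusted p = 0.0545) or normoxic replicate 3 (0.0663), and the calls of the other 2 were lost without any 1 of the 6 pools, with adjusted p from 0.0671 to 0.134 for 1437527_x_at and from 0.0708 to 0.13 for 1456243_x_at. For Mcl1 no difference between the effect at 0 h and a later one was called. The signal of probe sets ending in _x_at can include related transcripts.

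Bcl2l2, which encodes the pro-survival protein Bcl-w, had 2 of 4 probe sets above the threshold, and neither was called at any of the 4 times. In 1423572_at, its probe set with the highest mean, the hypoxic pools read 10.01, 10.04 and 10.15 at 0 h and the normoxic pools 10.09, 10.16 and 10.07. The groups overlapped, with a log2 change of -0.04 (95% interval -0.19 to 0.11, adjusted p = 0.694). At 2 h its log2 change was -0.05 (95% interval -0.20 to 0.10). The second tested probe set, 1451029_at, had a log2 change of -0.01 at 0 h (95% interval -0.19 to 0.17). Below the threshold, 1430454_x_at read 5.37, 5.61 and 5.45 after hypoxia at 2 h and 5.07, 5.06 and 5.26 in normoxia. These groups were apart, with a difference of 0.35 (95% interval 0.15 to 0.54) that was not tested, and the hypoxic pools were above the normoxic pools at 0 h and 16 h as well.

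Bak1, the pore-forming member that was measured, and Bid, a BH3-only protein cut by caspase 8, gave signals below the threshold in every group. The Bak1 probe set 1418991_at read 5.37, 5.13 and 5.17 after hypoxia at 0 h and 4.95, 4.85 and 4.81 in normoxia. The groups were apart by 0.36 (95% interval 0.03 to 0.68), but at a signal that was not tested. For Bid, 1417045_at read 5.78, 5.63 and 5.70 after hypoxia and 5.33, 5.39 and 5.81 in normoxia, and the groups overlapped.

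At 4 h 0 of 18 tested probe sets were called by limma, with 1 at an unadjusted p under 0.05 (Bcl2 1457687_at), against 1.43% called over all probe sets tested (0.876% higher and 0.551% lower). The pools did not overlap in 2 higher and 1 lower of them, against 17.1% and 10.2% of all tested. At 16 h 0 of 18 were called, again with 1 at an unadjusted p under 0.05, and over all probe sets tested 0% were called. The pools did not overlap in 1 higher and 1 lower, against 6.88% and 4.18% of all tested. The probe set with the low unadjusted p, which is also the 1 higher without overlap, was Mcl1 1416881_at, with 8.08, 8.09 and 8.002 after hypoxia and 7.80, 7.85 and 7.40 in normoxia, a difference of 0.38 without overlap (adjusted p = 0.77). A plain t-test per probe set with Benjamini-Hochberg adjustment gave 0 family calls at both times. It called 3 probe sets at 4 h and 0 at 16 h over the whole array. The paper's lists rest on other values and thresholds, so these counts are not the paper's. The medians over the tested family probe sets were 0.03 at 4 h and -0.04 at 16 h, beside 0.02 and 0.02 over all probe sets tested.

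Tests of the difference between times gave 5 of 19 family probe sets with an effect at 0 h unlike that at 2 h (8.21% of all tested), 4 of 19 unlike that at 4 h (16.9%) and 6 of 20 unlike that at 16 h (20.6%). By direction, 4 were higher and 1 lower for 2 h (2.8% and 5.41% of all tested), 3 higher and 1 lower for 4 h (6.37% and 10.6%), and 4 higher and 2 lower for 16 h (8.74% and 11.8%). They belonged to Bcl2l10, which entered through its hypoxic mean at 0 h alone, Bcl2l11, Bad and, for 16 h alone, Bcl2. In the normoxic groups, which served as the background, 0 of 19 family probe sets differed over the 4 times by the F test of limma, with 2 at an unadjusted p under 0.05, against 3.54% of all probe sets tested. Mcl1 1416881_at had the lowest adjusted p of these, 0.0572, with normoxic group means that spanned 0.44.

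Genes around the family were taken from 5 lists of 72 genes, of which 63 had a probe set and each was represented by 1. At 0 h 11 of the 44 tested were higher and 9 lower, against 15.2% higher and 18.7% lower over all genes tested (33.9% in all). At 2 h 5 were higher and 5 lower of 44, against 10.3% and 8.25% over all genes (18.5% in all). At 4 h 0 of 44 and at 16 h 0 of 42 were called by limma, with 7 and 2 at an unadjusted p under 0.05, against 1.58% (0.934% higher and 0.646% lower) and 0% over all genes. The plain t-test called 0 of these genes at both times, with the few calls over the whole array given above.

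Among other relatives of Bcl2, 1 of 5 tested genes was higher at 0 h (15.2% of all genes) and 3 of 5 at 2 h (10.3%). None was lower (18.7% and 8.25% of all genes). Bnip3, a mitochondrial protein of the BH3-like kind and a known target of hypoxia-inducible factors, had a log2 signal of 12.70 ± 0.08 (SD) in the 3 hypoxic pools and 11.50 ± 0.24 (SD) in the 3 normoxic pools at 0 h, a log2 change of 1.2 (SE 0.10, adjusted p = 2.84e-08). At 2 h its change was 0.70 (adjusted p = 0.000182). Bmf, a BH3-only gene, rose at 2 h by 0.83 (SE 0.24, adjusted p = 0.0222) and was not called at 0 h (0.58, adjusted p = 0.0739). The call of Bmf was lost without hypoxic replicate 1 (adjusted p = 0.0505), hypoxic replicate 2 (0.0902), normoxic replicate 2 (0.0829) or normoxic replicate 3 (0.0528). Bnip1, another BH3-containing relative, rose at 2 h by 0.44 (adjusted p = 0.00798), a call lost without hypoxic replicate 1 (adjusted p = 0.0641). The median of the list was 0.09 at 0 h and 0.44 at 2 h, beside -0.01 and 0.01 over all genes.

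Of cytochrome c, the caspases and their inhibitors, 3 of 13 tested genes were higher and 5 lower at 0 h (15.2% and 18.7% of all genes). Counts at 2 h were 1 of 12 higher and 2 lower (10.3% and 8.25% of all genes). Endog, a mitochondrial nuclease, rose at 0 h by 0.68 (adjusted p = 2.57e-05). Dffb, the caspase-activated DNase, rose by 0.60 (adjusted p = 0.000225), while Dffa, which encodes its inhibitor and chaperone, fell by 0.45 (adjusted p = 0.00483). Cycs, which encodes cytochrome c, fell by 0.46 at 0 h (adjusted p = 0.00212) and by 0.34 at 2 h (adjusted p = 0.0321). The 2 h call of Cycs was lost without hypoxic replicates 1 (0.0991) or 2 (0.0931) or normoxic replicates 1 (0.0886) or 3 (0.191). Xiap, an inhibitor of caspases, fell by 0.39 at 0 h (adjusted p = 0.00112) and by 0.44 at 2 h (adjusted p = 0.00145). The median of the list was -0.12 at 0 h and 0.01 at 2 h, beside -0.01 and 0.01 over all genes.

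Binding partners and modifiers of the family proteins numbered 15 tested genes. Of these, 1 was higher and 3 lower at 0 h (15.2% and 18.7% of all genes), and 2 were lower at 2 h (8.25%). Pim3, a kinase that phosphorylates the Bad protein, rose at 0 h by 0.76 (SE 0.09, adjusted p = 2.62e-06). Dynll1, the dynein light chain that binds Bim and Bmf, fell by 0.67 at 0 h (SE 0.07, adjusted p = 7.2e-07) and by 0.26 at 2 h (adjusted p = 0.0208). Bag1, a partner of Bcl2, fell by 0.25 at 0 h (adjusted p = 0.0355) and by 0.43 at 2 h (adjusted p = 0.0025). Mtch2, a mitochondrial receptor of Bid, fell by 0.29 at 0 h (adjusted p = 0.0255). Single pools ended some of these calls. For Dynll1 at 2 h they were hypoxic replicates 1 (0.116) and 3 (0.0635) and normoxic replicates 1 (0.0654) and 3 (0.0748). For Bag1 at 0 h they were hypoxic replicates 2 (0.129) and 3 (0.147) and normoxic replicates 1 (0.133) and 2 (0.0818), and for Mtch2 hypoxic replicates 2 (0.0904) and 3 (0.0534) and normoxic replicate 3 (0.154). The median of the list was -0.10 at 0 h and -0.05 at 2 h, beside -0.01 and 0.01 over all genes.

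Among transcription factors known to act on family genes, 5 of 8 tested were higher and 1 lower at 0 h (15.2% and 18.7% of all genes). The call at 2 h was 1 lower gene (8.25% of all genes). Ddit3, a factor of the unfolded protein response, rose by 0.83 (SE 0.12, adjusted p = 1.28e-05), and Atf4, of the same response, by 0.59 (adjusted p = 3e-05). Stat3, a cytokine-activated factor, rose by 0.68 (SE 0.15, adjusted p = 0.0018), and Foxo3 by 0.46 (SE 0.07, adjusted p = 6.04e-05). Mitf, a factor of pigment cells that acts on Bcl2, fell by 0.44 at 0 h (adjusted p = 0.0181) and by 0.51 at 2 h (adjusted p = 0.0142), calls lost at 0 h without hypoxic replicates 2 (0.102) or 3 (0.119) or normoxic replicate 2 (0.074), and at 2 h without hypoxic replicates 1 (0.0611) or 3 (0.0632) or normoxic replicate 2 (0.0608). The median of the list was 0.41 at 0 h and 0.04 at 2 h, beside -0.01 and 0.01 over all genes.

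In the death receptor pathway 1 of 3 tested genes was higher at 0 h (15.2% of all genes) and 1 of 4 at 2 h (10.3%). It was Cflar, an inhibitor of caspase 8, with a log2 change of 0.64 at 0 h (SE 0.10, adjusted p = 4.48e-05) and of 0.38 at 2 h (adjusted p = 0.0123). The call at 2 h was lost without hypoxic replicate 1 (0.0583), normoxic replicate 1 (0.0536) or normoxic replicate 3 (0.0526). The median of the list was -0.06 at 0 h and 0.10 at 2 h, beside -0.01 and 0.01 over all genes.

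**Figure D4:**
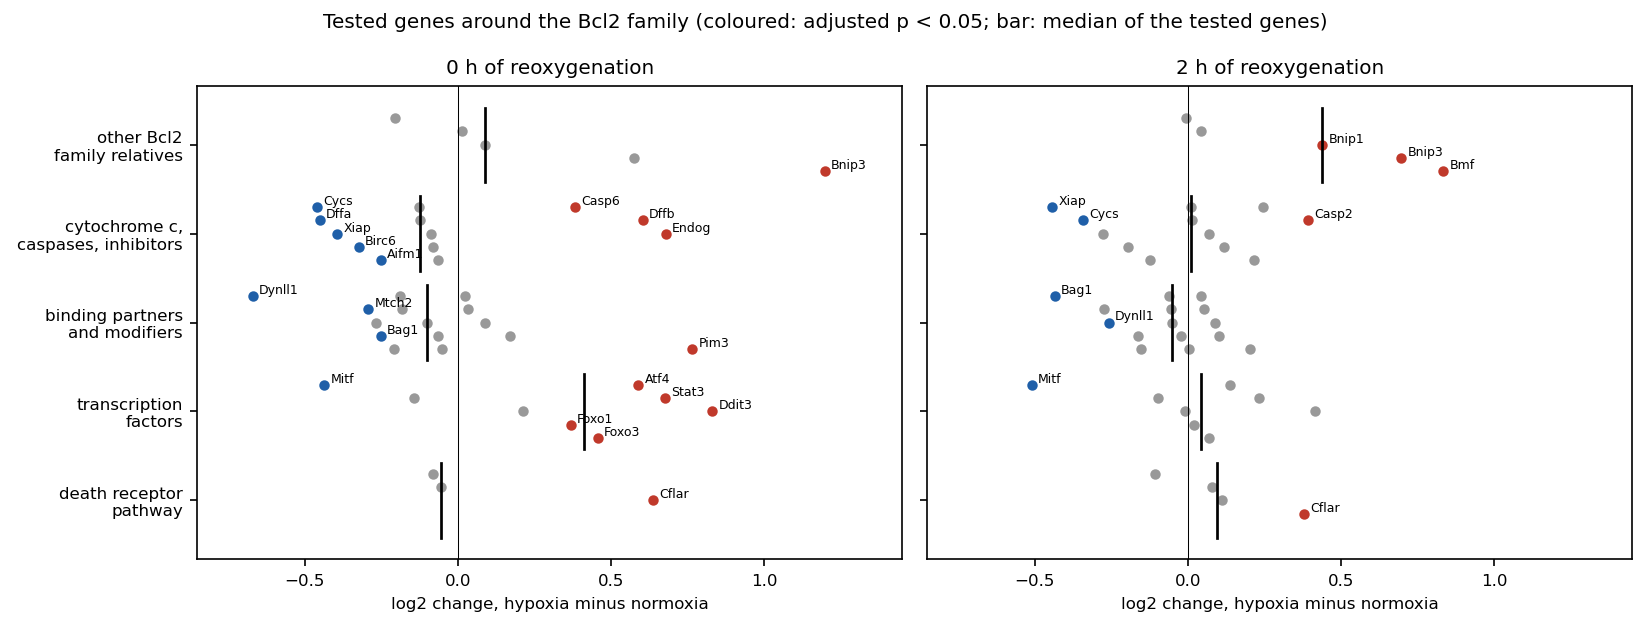
Log2 change (hypoxia minus normoxia, horizontal axis) of the tested genes of 5 lists around the Bcl2 family at 0 h and 2 h of reoxygenation, 1 point a gene. Red and blue genes were higher and lower at an adjusted p under 0.05, grey ones were not called, and the black bar is the median of the tested genes of a list. Bnip3 lies at 1.2 at 0 h, and the transcription factors have the highest list median there, 0.41.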

How the data were processed

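RNA of 24 pools of mouse retina was hybridised to Affymetrix mouse expression arrays, 3 in each of 8 groups. The deposited values are log2 signals made by the authors with RMA (version not given in the sources used here), a method that removes background, normalizes the arrays to each other and summarises each probe set. The lists of the paper rested on GCRMA values, which were not used here. Groups and replicate numbers came from the sample titles. Signal over background takes the place of depth on arrays, and array medians lay between 5.79 and 5.84. The number of pools limits the precision.

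The 64 control probe sets were left out. A linear model of 8 group means was fitted with limma 3.58.1 in R 4.3.3 to all arrays (eBayes, 16 residual degrees of freedom). A probe set entered a comparison if its hypoxic or normoxic mean reached 6.69, the minimum between the density peaks of all values, and adjusted p are Benjamini-Hochberg values over all probe sets tested in a comparison, called under 0.05. The scripts were tested on simulated data. Same-numbered hypoxic and normoxic arrays had residual correlations between -0.227 and 0.237, 2 of 12 above 0.1, and were not taken as pairs.

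The annotation gave 1 symbol to 34945 probe sets, several to 932 and none to 9160. Each family probe set is shown when called, and for a member with none called the one with the highest mean. For listed genes, the probe set with the highest mean stands for the gene, and up to 5 called genes of a list with the largest change are named. Values of other probe sets of a member were added after their values were seen. The members and lists were chosen with earlier results of these data known. Alternatives were no filter or a stricter one, 2 normalizations, other spread estimates, array weights, a replicate block, fewer arrays and a plain t-test. The plain t-test was run per probe set on the RMA values with Benjamini-Hochberg adjustment. The paper also used t-tests with false discovery control, but on GCRMA values and with thresholds its authors chose, so its procedure was not repeated.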

Additional observations from a re-analysis of the deposited data

Results flagged for a closer look

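The effect of hypoxia at 0 h differed from that at a later time, by limma's test of the difference, in 15 comparisons of family probe sets, and each is given here as a log2 difference. Bcl2l10 (1416434_at) differed by 2.18 from 2 h, by 2.75 from 4 h and by 2.73 from 16 h, but 7 of its 8 group means were below the signal threshold and it was tested only through its hypoxic mean at 0 h, so these sizes are measured differences and no support for a course. Bcl2l11 1456005_a_at differed by 0.58, 0.74 and 0.76 from the same 3 times, and 1435448_at by 0.60, 0.69 and 0.74. For the remaining Bcl2l11 probe sets, 1456006_at differed by 0.58 from 2 h and 1435449_at by 0.52 from 16 h. The last was lost without any of 8 pools, with adjusted p between 0.063 and 0.147, hypoxic replicate 3 of 16 h giving the latter. Bad 1416583_at differed by -0.44 from 2 h, by -0.51 from 4 h and by -0.46 from 16 h, and Bcl2 1457687_at by -0.62 from 16 h. For 2 h, the difference of 1435448_at was lost without hypoxic replicate 1 (adjusted p = 0.0637) or normoxic replicate 3 (0.052) of 0 h, or hypoxic replicate 3 (0.0604) or normoxic replicate 3 (0.0513) of 2 h. That of 1456006_at was lost without hypoxic replicate 1 (0.0882) or normoxic replicate 3 (0.0597) of 0 h, or hypoxic replicates 2 (0.0645) and 3 (0.0644) or normoxic replicate 2 (0.0704) of 2 h. All share the arrays of 0 h. The summed pigment epithelium signal differed at 0 h as well, 7648 to 8277 against 735.1 to 1115, and its part in these differences was not tested.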

How the results depend on the processing

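The 58 named values and their alternatives gave 618 pairs of a value and a setting. In 526 the call stayed on its side of the threshold, in 92 a call was lost or the probe set was no longer tested, and none changed sign. Counts of calls moved by more than 1.5 times in these cases. With the arrays of the time point alone, family calls were 8 of the main 13 at 0 h and 1 of 4 at 2 h, differences between 0 h and 2 h were 2 against 5, and pathway genes at 2 h were 6 against 10, while calls over all probe sets fell from 6091 to 4477 at 0 h, from 3081 to 1325 at 2 h and from 1568 to 881 for the differences. With the plain t-test, family calls were 4 at 0 h and 0 at 2 h, and calls over all probe sets fell to 2803 and 156. The 4 were Bcl2l10, Bad 1416583_at and Bcl2l11 1435448_at and 1456005_a_at, so Bcl2, Bcl2l1 and Mcl1 kept no call. Pathway genes with this test were 10 against 20 at 0 h and 1 against 10 at 2 h. Differences between 0 h and 2 h were 3 both without a filter and with a stricter one. Without probe sets ending in _x_at or _s_at, 2 family calls were left at 2 h. A trended and robust spread gave 1 family probe set that differed among the normoxic groups. With the replicate number as a block, family calls at 2 h were 2 and other counts of calls stayed within 1.5 times, and the normoxic comparison could not be fitted with it. The t-test was not run for differences of effects or the normoxic comparison. Leaving out 1 array in turn gave 8 to 11 family calls at 0 h, 0 to 2 at 2 h, 0 at 4 h and 0 at 16 h, 1 to 6, 4 to 5 and 5 to 7 differences from 2, 4 and 16 h, and 0 to 1 normoxic difference. For pathway genes it gave 15 to 20 at 0 h, 4 to 9 at 2 h, and 0 at both later times. When both normoxic arrays that stood apart were left out, family calls were 11 at 0 h and 5 at 2 h, and the calls of Mcl1 1448503_at (adjusted p = 0.0965) and 1456243_x_at (0.149) at 0 h, Bag1 (0.0713) and Mitf (0.0757) at 0 h, and the difference of Bcl2 1457687_at from 16 h (0.101) were lost. The cause of these moves was not tested. Signals below the threshold, as for Bak1, Bid and normoxic Bcl2l10, limit what can be said of those genes.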
